A study of Homo sapiens with 6 samples.

Results

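EPCAM and the genes of the matriptase protease-inhibitor system are 9 of the 32029 genes listed in the count tables, taken by exact match of the gene symbol. They are EPCAM, SPINT1, SPINT2, ST14, PRSS8, HPN, HGFAC, MST1R and MET. The 6 RNA libraries come from SW480 cells, an established human line derived from a colorectal adenocarcinoma. In 3 cultures the cells received the control siRNA siNC and are labelled WT, and in 3 they received siZEB1 and are labelled ZEB1 knockdown. RNA of all 6 was collected 48 h after transfection, so the data describe 1 cell line, 1 time point and a transient knockdown of ZEB1, a zinc finger repressor of epithelial genes. How many siRNA sequences were used is not given in the sources used here.

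Matriptase, encoded by ST14, is a serine protease anchored in the plasma membrane of epithelial cells. It activates and is activated by prostasin (PRSS8), and both are held in check by the transmembrane Kunitz-type inhibitors SPINT1 and SPINT2, also called hepatocyte growth factor activator inhibitors. Hepsin (HPN) and the secreted protease HGFAC, together with matriptase, cleave the inactive precursors of HGF and of macrophage-stimulating protein (MST1), the ligands of the receptor tyrosine kinases MET and RON (MST1R). EPCAM, an adhesion glycoprotein of simple epithelia, is itself cut by matriptase, and inherited loss of EPCAM or SPINT2 causes a congenital enteropathy with tufted epithelium.

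The promoter windows are shown because ZEB1 binds the E-box CACCTG, read as CAGGTG on the other strand. Sequences are printed for SPINT1 and MST1R, called higher, and for MET, not called, so they were chosen with their values known. Whether matches go with the response to the knockdown was not tested. The RefSeq promoter table for GRCh38.p14 matched 5 of the 9 genes with 6 windows of 300 bases, each running from 250 bases before an annotated transcription start to 50 after it. EPCAM, SPINT2 and ST14, which were called higher, had no window there, and neither had PRSS8. Capitals mark CACCTG or CAGGTG, and each sequence is written 5′ to 3′ on the strand of its gene. SPINT1 has 2 annotated starts, whose windows lie at chr15:40843798-40844097 and chr15:40844227-40844526 on the plus strand. The MST1R window lies at chr3:49903824-49904123 on the minus strand and the MET window at chr7:116671946-116672245 on the plus strand.
SPINT1, start 1: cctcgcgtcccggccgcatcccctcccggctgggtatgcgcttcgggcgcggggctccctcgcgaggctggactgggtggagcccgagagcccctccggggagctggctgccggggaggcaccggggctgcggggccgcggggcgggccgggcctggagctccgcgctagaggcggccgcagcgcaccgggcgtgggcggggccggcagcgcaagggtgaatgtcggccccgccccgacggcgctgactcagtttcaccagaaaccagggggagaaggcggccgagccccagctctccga
SPINT1, start 2: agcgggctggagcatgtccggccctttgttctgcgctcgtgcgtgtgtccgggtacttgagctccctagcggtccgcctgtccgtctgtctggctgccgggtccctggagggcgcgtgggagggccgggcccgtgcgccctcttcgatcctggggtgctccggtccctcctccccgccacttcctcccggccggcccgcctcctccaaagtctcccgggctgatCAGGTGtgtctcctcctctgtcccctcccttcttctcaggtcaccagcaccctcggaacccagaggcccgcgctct
MST1R: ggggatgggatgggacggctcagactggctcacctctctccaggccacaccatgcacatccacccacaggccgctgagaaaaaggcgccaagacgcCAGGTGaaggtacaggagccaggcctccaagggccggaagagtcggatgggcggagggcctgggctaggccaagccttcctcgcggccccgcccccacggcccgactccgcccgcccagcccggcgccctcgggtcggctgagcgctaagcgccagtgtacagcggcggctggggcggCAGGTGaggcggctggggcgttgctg
MET: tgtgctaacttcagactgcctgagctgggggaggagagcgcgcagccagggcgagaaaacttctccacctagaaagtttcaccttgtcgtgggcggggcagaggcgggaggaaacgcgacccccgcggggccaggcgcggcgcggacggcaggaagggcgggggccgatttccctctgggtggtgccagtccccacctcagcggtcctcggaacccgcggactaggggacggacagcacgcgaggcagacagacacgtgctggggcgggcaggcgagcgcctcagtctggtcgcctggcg

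The window of the second SPINT1 start held 1 match, whose first base lies at -26 from the start, and that of the first SPINT1 start held 0. MST1R had 2, with first bases at -154 and 25, counted from 1 at the start itself. MET had 0, while HPN had 3 and HGFAC had 2, and these last genes had too few reads to be tested. Of all 35116 windows of this length in the table, 20.6% held at least 1 match on either strand, and 3.49% held 2 or more. A match describes the letters of a window and does not show a bound site.

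**Figure D1:**
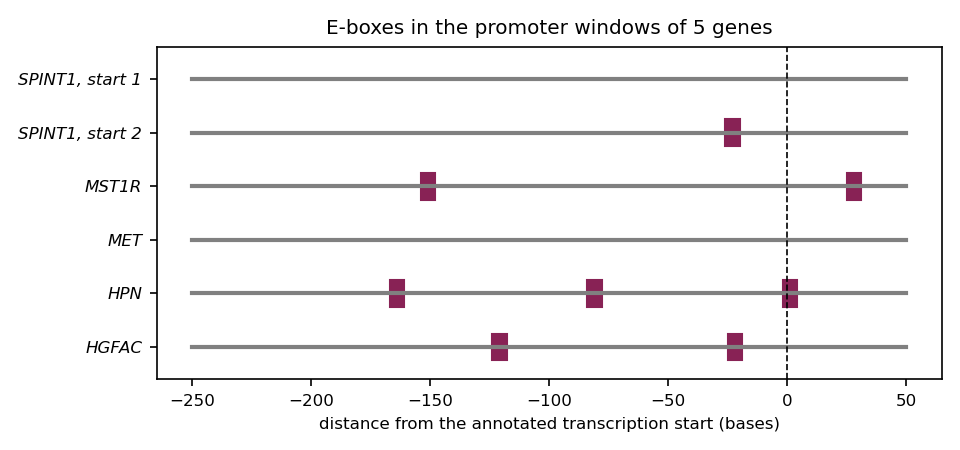
Positions of the E-box CACCTG, on either strand, in the promoter windows of 5 genes, where the x axis gives the distance from the annotated transcription start in bases, each grey line is 1 window, and each block is 1 match. MST1R carries 2, the second SPINT1 start 1, the MET window 0, HPN 3 and HGFAC 2.

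The libraries held between 19040636 and 22357633 counted reads. ZEB1 itself had 1247, 1276 and 908 reads with siNC and 136, 132 and 162 reads with siZEB1, so the labels and the targeted gene point the same way (log2 fold change -2.85, SE 0.11). Of the colorectal epithelial markers, KRT8 and KRT18 were abundant (3455 ± 160 and 1418 ± 150 CPM with siNC, SD, n = 3), whereas CDH17 and KRT20 averaged under 1 CPM in both groups. Of the 8 tested markers of that list, KRT19 (log2 fold change 1.62) and VIL1 (2.34) were called higher, CDX2 (-1.30), LGR5 (-1.98, under 1 CPM) and EPHB2 (-0.29) lower, and 3 were not called. These markers moved in both directions, whereas no member was called lower, and the part of the markers in the members' values was not tested. Exons of USP37 on the opposite strand cover 44.0% of the exonic bases of VIL1. Leukocyte markers summed to between 0.988 and 1.41 CPM in every culture, and PTPRC was not among the listed genes. Fibroblast markers summed to between 13.3 and 15.3 CPM, carried by COL1A1 and by PDGFRB, which was called higher (3.98 ± 0.309 to 5.33 ± 0.222 CPM), while COL1A2, COL3A1 and LUM were each under 1 CPM. In such bulk RNA, a change in the number of cells that express a gene and a change in RNA per cell cannot be told apart.

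Of the 9 genes, 6 passed the filter on low counts and entered the comparison of siZEB1 with siNC, and 5 of these 6 (EPCAM, SPINT1, SPINT2, ST14 and MST1R) were called higher with siZEB1 (adjusted p-value under 0.05). Across all 14996 genes tested, 19.0% were called higher and 21.2% lower. No member was called lower, and MET was not called. The median log2 fold change of the 6 tested members was 1.37, against -0.005 over all genes tested. All 6 had groups that did not overlap, as did 49.5% of all genes tested. The members were chosen with earlier results of these data known, so these counts and the median describe them and do not test the list. PRSS8, HPN and HGFAC had too few reads to be tested and are given below by their reads. Fold changes are log2 of siZEB1 over siNC, levels are read counts scaled to library size by TMM (CPM), and adjusted p-values are from the two-sided quasi-likelihood test of edgeR after Benjamini-Hochberg adjustment over all genes tested.

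**Figure D2:**
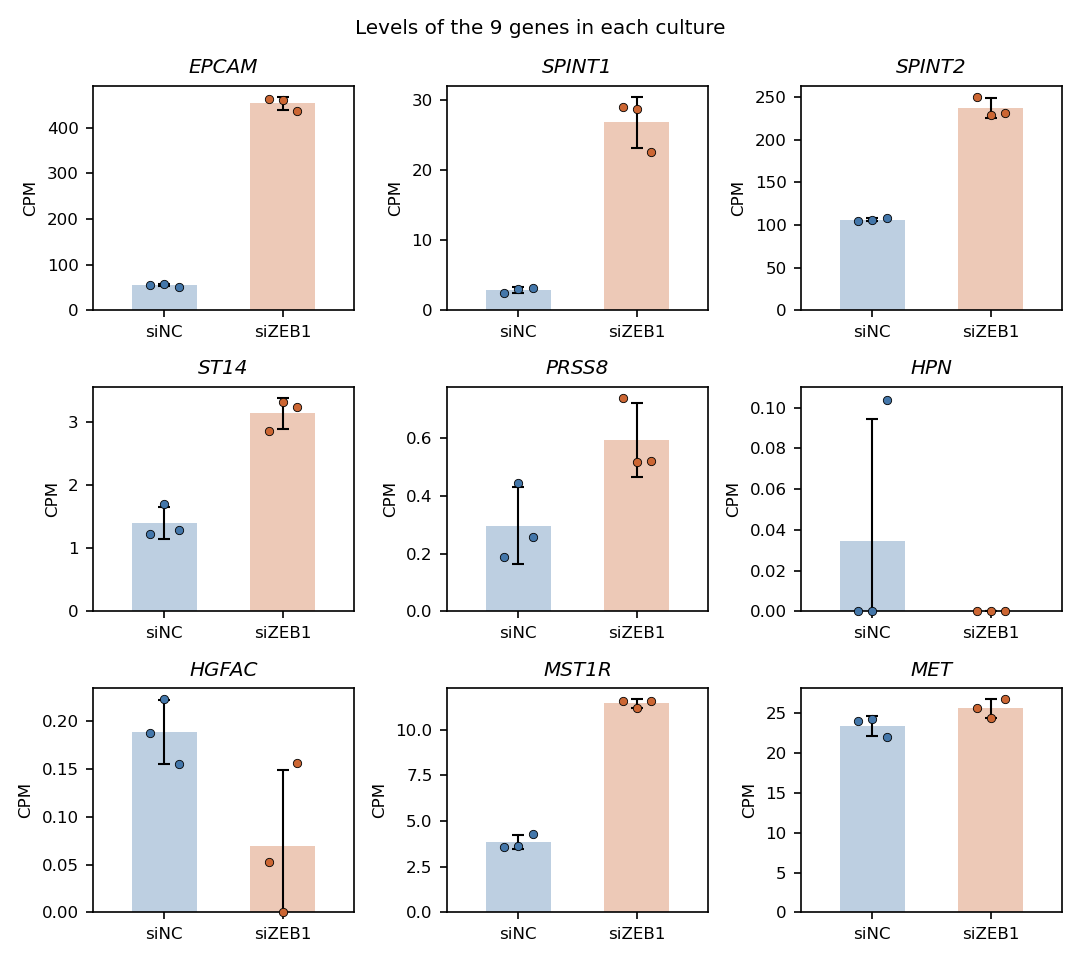
Levels of the 9 genes in CPM, on linear axes that start at 0 and differ between panels, where points are the 3 cultures of a group, bars the mean and whiskers the SD, cut at 0 where it exceeds the mean. EPCAM, SPINT1, SPINT2, ST14, MST1R, PRSS8 and MET stand higher in every siZEB1 culture than in any siNC culture. The MET groups lie close together at 22.0 to 26.8 CPM, PRSS8 is under 1 CPM throughout, and HPN is at 0 in 5 of 6 cultures.

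EPCAM (ENSG00000119888, chromosome 2 from 47345158 to 47387601) gave 1169, 1273 and 1008 reads with siNC, and 8737, 8858 and 8370 once ZEB1 was knocked down. In CPM the siNC cultures spanned 52.3 to 56.9 and the siZEB1 cultures 437 to 463. The cultures within each group lay close together, and the 2 groups were far apart. The mean rose from 54.7 ± 2.29 to 454 ± 14.1 CPM (SD, n = 3 each). On the log2 scale the change was 3.05 with an SE of 0.062 and an edgeR adjusted p of 2.54e-15, which is 8.29-fold. Only 18 of the 14996 genes tested had a larger log2 fold change. By level in CPM, 4248 tested genes stood above EPCAM in the siNC cultures and 302 in the siZEB1 cultures. No other annotated gene overlaps its exons.

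SPINT1 (ENSG00000166145, chromosome 15 from 40844018 to 40858207), the inhibitor that binds matriptase at the cell surface, changed by a similar factor from a much lower level. It had 53, 70 and 63 reads with siNC and 549, 554 and 432 with siZEB1, or 2.49, 3.13 and 3.27 CPM against 29.1, 28.8 and 22.6 CPM. The third siZEB1 culture was the lowest of its group and still far above every siNC culture. The mean rose from 2.96 ± 0.413 to 26.8 ± 3.68 CPM (SD, n = 3 each). On the log2 scale the change was 3.18 with an SE of 0.14 and an edgeR adjusted p of 1.64e-11, which is 9.05-fold. The fold rests on 186 reads over the siNC cultures, and 2.82% of its exonic bases are shared with SPINT1-AS1 on the opposite strand. Leaving out 1 culture at a time moved the log2 fold change between 3.07 and 3.29.

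SPINT2 (ENSG00000167642, chromosome 19 from 38244035 to 38292614), the second inhibitor, was the more abundant of the pair in both groups. Its CPM were 105, 106 and 109 with siNC and 251, 229 and 231 with siZEB1, from 2095 to 2370 and from 4401 to 4729 reads per culture. The mean rose from 106 ± 2.04 to 237 ± 11.9 CPM (SD, n = 3 each). On the log2 scale the change was 1.15 with an SE of 0.061 and an edgeR adjusted p of 2.48e-10, which is 2.23-fold. Every siZEB1 culture stood well above every siNC culture, by a smaller factor than for SPINT1. Of its exonic bases, 4.66% are shared with another annotated gene, AC011479.1, on the same strand.

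ST14 (ENSG00000149418, chromosome 11 from 130159562 to 130210376), the protease that both inhibitors act on, was scarce. It had 26, 38 and 25 reads with siNC and 54, 64 and 62 with siZEB1, or 1.22, 1.70 and 1.30 CPM against 2.86, 3.33 and 3.24 CPM. The groups did not overlap, but each value rests on at most 64 reads. The mean rose from 1.41 ± 0.255 to 3.14 ± 0.249 CPM (SD, n = 3 each). On the log2 scale the change was 1.15 with an SE of 0.21 and an edgeR adjusted p of 0.000331. Its approximate 95% interval of 0.74 to 1.57, taken from the SE, was wider than that of SPINT2, from 1.04 to 1.27. Without 1 culture the log2 fold change of ST14 lay between 1.06 and 1.32, and its adjusted p-value reached 0.00218 at most over all alternatives, the lowest being 8.34e-06.

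PRSS8 (ENSG00000052344, chromosome 16 from 31131433 to 31135762), the membrane-anchored partner of matriptase, had 4, 10 and 5 reads with siNC and 14, 10 and 10 with siZEB1. Summed over each group this was 0.302 CPM (95% exact Poisson interval 0.182 to 0.472) against 0.594 CPM (0.411 to 0.83), intervals that cover counting error only and that overlap. By culture the groups did not overlap, at 0.188 to 0.447 CPM with siNC and 0.52 to 0.742 CPM with siZEB1, as for 49.5% of all genes tested. With no filter on low counts the log2 fold change of PRSS8 was 0.96 and the edgeR adjusted p-value 0.22. In the refits without 1 culture that tested it, these lay between 0.72 and 1.39 and between 0.0676 and 0.296. PRSS8 was therefore not called at this depth. Exons of AC009088.3 on the opposite strand cover 11.9% of its exonic bases. HPN had 2 reads in all, both in the third siNC culture. For the HPN total of 0 reads with siZEB1, the 95% exact Poisson interval reached up to 0.0644 CPM. HGFAC had 4, 5 and 3 reads with siNC and 1, 0 and 3 with siZEB1, and its log2 fold change without the filter was -1.37 with an adjusted p-value of 0.46. Hepsin and the HGF activator were therefore at or near the limit of detection in both groups.

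The receptors differed from each other. MST1R (ENSG00000164078, chromosome 3 from 49887002 to 49903873), which encodes RON, had 76, 82 and 83 reads with siNC and 219, 215 and 222 with siZEB1. In CPM these were 3.57, 3.66 and 4.31 against 11.6, 11.2 and 11.6, with little spread in either group. The mean rose from 3.85 ± 0.399 to 11.5 ± 0.242 CPM (SD, n = 3 each). On the log2 scale the change was 1.58 with an SE of 0.12 and an edgeR adjusted p of 3.54e-08, which is 2.99-fold. Genes on the opposite strand cover 6.78% of its exonic bases. MET (ENSG00000105976, chromosome 7 from 116672390 to 116798386), the HGF receptor, had 511, 542 and 424 reads with siNC and 483, 469 and 513 with siZEB1. Its CPM were 24.0, 24.2 and 22.0 against 25.6, 24.4 and 26.8, so the lowest siZEB1 culture stood just above the highest siNC culture. The log2 fold change was 0.13 (SE 0.082, adjusted p = 0.235 by edgeR), with an interval of -0.03 to 0.29, and MET was not called in any of the 12 alternative fits, in which the adjusted p-value lay between 0.205 and 0.489.

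**Figure D3:**
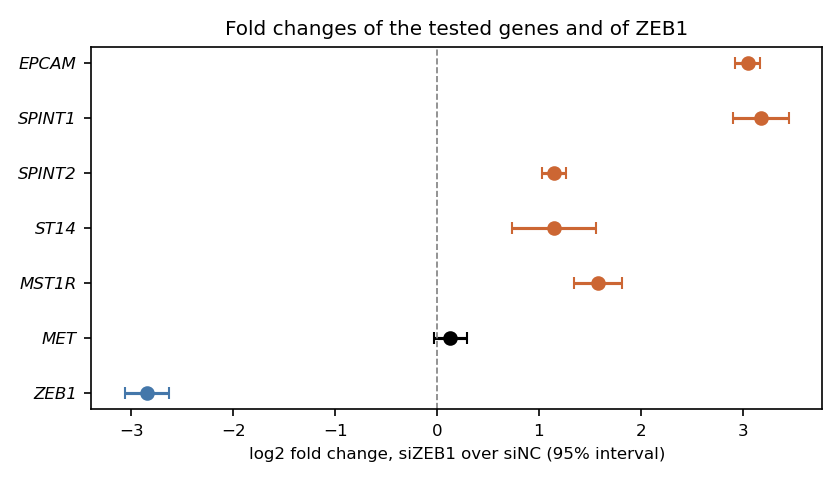
Log2 fold changes of the 6 tested members and of ZEB1, siZEB1 over siNC, with bars of the approximate 95% interval taken from the SE, where orange marks genes called higher, blue lower and black not called. EPCAM and SPINT1 lie above 3, MST1R at 1.58, SPINT2 and ST14 at 1.15, and the bar of MET crosses 0.

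Levels of different genes were compared as CPM per kb of exon. In the siNC cultures EPCAM (21.7 ± 0.909) and SPINT2 (20.5 ± 0.392) came first, and their cultures overlapped. MET followed at 3.33 ± 0.175, then SPINT1 at 0.836 ± 0.117 and MST1R at 0.733 ± 0.0761, whose cultures overlapped, and ST14 at 0.323 ± 0.0586 CPM per kb (SD, n = 3 each). PRSS8 at 0.099 ± 0.0444 overlapped HGFAC at 0.0664 ± 0.0119, and HPN was last. In the siZEB1 cultures EPCAM stood alone at 180 ± 5.61 CPM per kb, with SPINT2 at 45.6 ± 2.28, and SPINT1 at 7.57 ± 1.04 had moved above MET at 3.64 ± 0.171. MST1R at 2.18 ± 0.046, ST14 at 0.723 ± 0.0571 and PRSS8 at 0.198 ± 0.0423 CPM per kb kept their places after MET, each above the next in every culture. HGFAC and HPN, the last in that order, overlapped. The order was the same in both groups when the longest transcript gave the length.

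Ratios of 2 genes within a culture do not depend on how the libraries were scaled, and they are given here without a test. SPINT1 to ST14, inhibitor to protease in reads per kb, was 2.50, 2.26 and 3.10 with siNC and 12.5, 10.6 and 8.56 with siZEB1. The log2 ratio was 1.38 ± 0.23 against 3.38 ± 0.27 (SD, n = 3 each), a difference of 2.01, and no siNC culture reached a siZEB1 culture. SPINT2 to ST14 was 71.7, 52.2 and 70.1 against 73.3, 57.5 and 59.7, and the groups overlapped, with a difference of -0.02 on the log2 scale. The ratio of the abundant inhibitor to the protease thus differed by less than the spread between cultures, while the ratio of the scarcer inhibitor to the protease was 4.02 times as high. SPINT1 made up 3.92% ± 0.473 of the summed SPINT1 and SPINT2 reads per kb with siNC and 14.2% ± 1.56 with siZEB1 (SD, n = 3 each). This share and the ratio of SPINT1 to SPINT2 were not planned. MST1R to MET, a ratio chosen after its values were seen, was 0.199, 0.203 and 0.262 with siNC and 0.608, 0.614 and 0.58 with siZEB1.

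**Figure D4:**
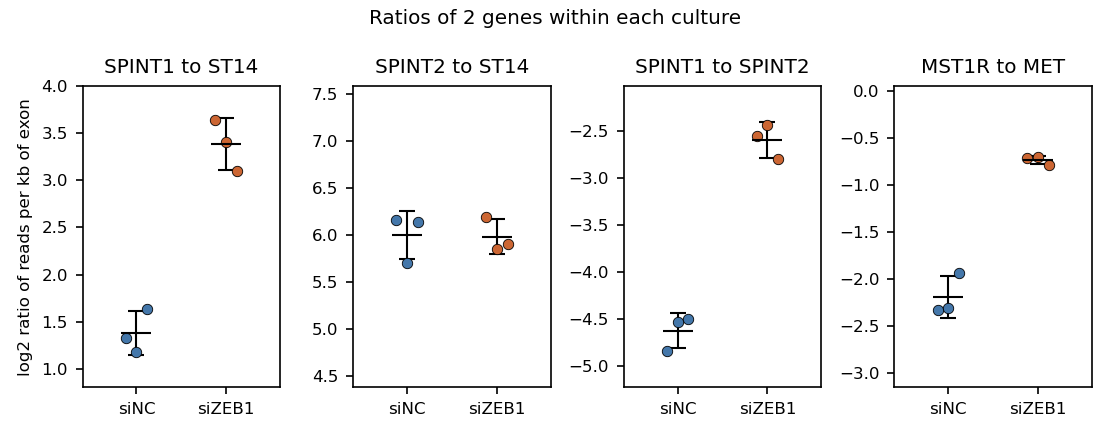
Log2 ratios of reads per kb of exon for 4 pairs of genes within each culture, where points are cultures, the horizontal mark is the mean and whiskers the SD, and each panel spans the same range of 3.2 log2 units. SPINT1 to ST14, SPINT1 to SPINT2 and MST1R to MET differ between the groups without overlap, and SPINT2 to ST14 overlaps. Only the ratios to ST14 were planned.

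The genes whose profile over the 6 cultures was most like that of a member were found by the root mean square distance between log2 CPM values, each centred on its own mean, among 10237 genes with a mean of at least 5 CPM. Nearest to EPCAM were F11R (0.106), a junctional adhesion molecule, and SPINT1 itself (0.166). F11R was also nearest to SPINT1 (0.0874), followed by EPCAM. F11R rose from 6.31 ± 0.482 to 54.3 ± 5.06 CPM (SD, n = 3 each), or by 3.11 on the log2 scale, and shares 36.6% of its exonic bases with AL591806.3 on the same strand. Nearest to ST14 were BCL7A (0.112) and HSDL2 (0.117), with log2 fold changes of 1.09 and 1.17. These distances describe 6 cultures in 2 groups, and any gene with a like fold change and a small spread lies near.

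Substrates and partners of these proteases were described from a list compiled by hand. Of its 14 genes, 11 were listed in the tables and 9 tested, of which 6 were called higher and 0 lower by edgeR, against 19.0% and 21.2% of all genes tested. The median of the 9 log2 fold changes was 0.41. All 9 log2 fold changes were above 0, so none of the 9 could be called lower at any threshold. CLDN1, a claudin of the same list that fell below the filter, pointed the other way, with 11, 6 and 8 reads with siNC and 2 in each siZEB1 culture, and the groups did not overlap. SCNN1A, a subunit of the epithelial sodium channel, had 6, 11 and 13 reads with siNC and 51, 62 and 41 after the knockdown. This is 2.48 on the log2 scale with an SE of 0.32 (edgeR adjusted p = 7.98e-06), and 7.18% of the exonic bases of SCNN1A lie opposite LTBR. The channel subunits SCNN1B and SCNN1G were not among the listed genes. LAMB3, a laminin chain, rose from 29.6 ± 1.29 to 55.7 ± 2.78 CPM and F2RL1, the protease-activated receptor PAR2, from 15.2 ± 1.36 to 21.7 ± 0.341 CPM (SD, n = 3 each), with log2 fold changes of 0.91 and 0.52. CLDN7, a claudin that binds EPCAM, had 14, 19 and 7 reads against 26, 14 and 39, with overlap between the groups, and 10.8% of its exonic bases are shared with AC003688.1 on the same strand. CLDN7 differed by 1.12 on the log2 scale (adjusted p = 0.0317), and the call was lost without siNC replicate 1 (0.0611), siNC replicate 3 (0.0838), siZEB1 replicate 1 (0.0733) or siZEB1 replicate 3 (0.198), each an adjusted p. The log2 fold changes in those refits were 1.15, 0.86, 1.12 and 0.73 in the same order, so the value without siZEB1 replicate 3 was the smallest. MST1, the RON ligand, was at 3.61 ± 0.223 and 4.19 ± 1.89 CPM and was not called (adjusted p = 0.504), with the third siZEB1 culture at 122 reads against 58 to 82 in the others. MST1 has near-identical copies in the genome, and how their reads were assigned is not known. HGF, the MET ligand, was not among the listed genes and was not analysed here.

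Other membrane-anchored serine proteases gave little signal. Of 16 such genes, 14 were listed, and 12 of these fell below the filter, with at most 12 reads in any culture. The 2 tested, TMPRSS5 and TMPRSS9, had log2 fold changes of -0.40 and -0.21 and were not called. Of 18 further genes for Kunitz-domain proteins and serpins, 8 were tested, 0 were called higher and 2 lower, against 19.0% and 21.2% of all genes tested. SERPINE2, which encodes protease nexin and inhibits prostasin, was at 13.4 ± 0.598 CPM with siNC and fell to 8.47 ± 0.916 (SD, n = 3 each), which is -0.66 on the log2 scale. APP and APLP2, which encode proteins with Kunitz-domain forms, were abundant as RNA (means of 511.5 and 681.2 CPM with siNC). Their log2 fold changes were -0.13 and 0.06, and neither was called. The median over the 8 tested was -0.10.

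For EPCAM, a list of its cleavage enzymes, signalling partners and membrane partners held 16 genes, of which 15 were tested, 2 called higher and 4 lower, with a median log2 fold change of 0.02. These counts lie near the shares over all genes tested, 19.0% higher and 21.2% lower. FHL2, a partner of the released EPCAM intracellular domain, fell from 73.1 ± 3.86 to 52.1 ± 4.80 CPM (SD, n = 3 each). TSPAN8, a tetraspanin found in complexes with EPCAM, had 18, 13 and 11 reads with siNC and 2, 1 and 2 after the knockdown, which is -2.85 on the log2 scale with an SE of 0.57 (edgeR adjusted p = 0.000585). Of 22 genes of MET and RON signalling, 21 were tested, and 1 was called higher and 8 lower, with a median of -0.13, beside the same shares over all genes. The 4 largest changes were falls in CBLB (-0.94), a ubiquitin ligase, PTPRJ (-0.58), a receptor phosphatase, SHC1 (-0.45), an adaptor, and LRIG1 (-0.44), which lowers receptor levels, with adjusted p-values from 6.61e-06 to 0.00272 by edgeR.

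**Figure D5:**
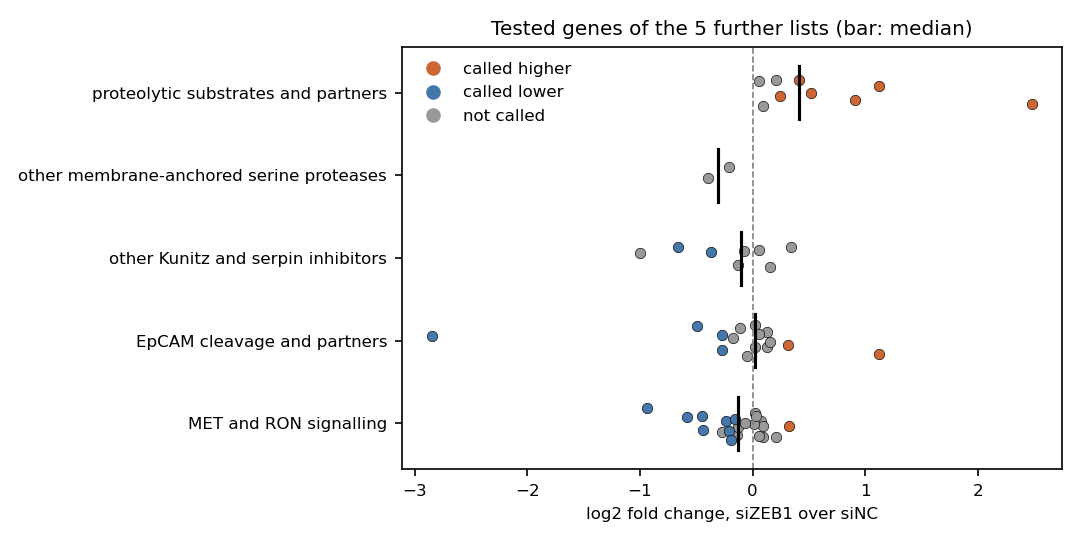
Log2 fold changes, siZEB1 over siNC, of the tested genes of 5 lists, with the median of each list as a black bar, where orange marks genes called higher, blue lower and grey not called. The 9 tested substrates and partners lie above 0, with SCNN1A at 2.48 and CLDN1 not plotted since it was not tested, while the other medians lie between -0.31 and 0.02.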

How the data were processed

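Total RNA was extracted with Trizol from 3 siNC and 3 siZEB1 cultures of SW480 cells and sequenced on an Illumina instrument. The authors deposited 1 table of raw read counts per Ensembl gene for each culture, without normalization. The submitters' processing notes name Trimmomatic, HISAT2, SAMtools, featureCounts and hg38, while versions, annotation and strand setting are not given in the sources used here, so reads of overlapping genes may be shared. Of 32029 genes, 31059 were matched by identifier to GENCODE 29 (GRCh38), which gave coordinates and exonic lengths.

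Low genes were removed with filterByExpr, libraries were scaled by TMM, and siZEB1 was compared with siNC by the quasi-likelihood test of edgeR 4.0.16 (R 4.3.3) without covariates, with Benjamini-Hochberg adjustment over 14996 genes. SE is the unshrunk coefficient over the square root of F. The steps were tested on simulated data. Replicates are described as biological by the study, and no 2 of a group agreed within sampling noise (chi-square over degrees of freedom 2.27 to 9.58). Members and lists were chosen with earlier results of these data known. Besides the 9 members and ZEB1, the genes named were up to 4 called genes per list with the largest change, the 2 nearest profiles (log2 of CPM + 0.1) to each of EPCAM, SPINT1 and ST14, and cell type markers. TMPRSS5, TMPRSS9, CLDN1, APP, APLP2 and MST1 were named after their values were seen. Some results that the naming rule would include are not reported here. Alternatives were DESeq2 1.42.0, median-of-ratios or total library size scaling, other filters, a block for replicate number, leaving out each culture and the thresholds the study states.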

Additional observations from a re-analysis of the deposited data

How the results depend on the processing

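The 5 members called higher were called under each of the 14 alternatives, and 0 were called lower in any. With fold change over 1.5 and unadjusted p under 0.001, the threshold of the study's methods, 678 genes were called higher and 1004 lower, in place of 2849 and 3186. With unadjusted p under 0.05, which the study also states and which was added after the data were seen, they were 1081 and 1402. Leaving out 1 culture gave 2305 to 2928 higher and 2637 to 3311 lower, and the log2 fold change of ZEB1 lay between -2.95 and -2.79. The difference in the log2 ratio of SPINT1 to ST14 lay between 1.88 and 2.15 with 1 culture left out, and that of SPINT2 to ST14 between -0.17 and 0.06, against -0.02 with all. Of 237 refits of 20 genes, 233 kept their direction and side of the threshold, and the other 4 were those of CLDN7. With the replicate block, 2289 genes were called higher and 2679 lower, and it changed no call among the 20 genes refitted. Deviations of same-numbered cultures correlated at -0.234, -0.303 and -0.563 over 10237 genes, no culture correlated best with its own number, and the numbers were not taken to pair the cultures. Depth limits PRSS8, HPN and HGFAC, which had 34 reads or fewer per group. The length of the longest transcript, as an alternative for levels per kb, was added after the data were seen and changed the rank of 0 members.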
